A study of Mus musculus with 6 samples.

Results

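The clustered histone genes are the protein-coding genes whose names begin with Hist1h, Hist2h, Hist3h or Hist4 in the deposited gene table of AE9a leukemia cells. Of 54532 genes in that table, 67 met this rule, and 3 further genes with such names were left out because they were not annotated as protein coding. By the type of histone they encode, 6 were H1, 18 H2A, 18 H2B, 12 H3 and 13 H4 genes. By locus, 54 lay in the Hist1 cluster on chromosome 13, 10 in Hist2 on chromosome 3, 2 in Hist3 on chromosome 11 and 1 in Hist4 on chromosome 6. The choice used names and biotype only, not measured values.

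The 6 RNA-seq libraries came from leukemia cells of C57BL/6 mice, and the study asked how their transcripts differ between 2 regions of the bone marrow. AE9a is AML1-ETO9a, a splice form of the t(8;21) leukemia fusion, delivered by retrovirus into c-Kit+ marrow cells, and the cells sequenced came from the third round of transplantation. Recipients were young adult female mice by the methods of the study, and their age when marrow was taken is not given in the sources used here. Per the labels the cells were sorted and kept in culture medium around the sort, and the gate used for these libraries is not given in the sources used here. The 3 CBM (central bone marrow) libraries were made from marrow flushed out of femurs and tibias. The 3 EBM (endosteal bone marrow) libraries were made from cells released by collagenase digestion of the bones that remained. All 6 libraries therefore carried the fusion and the same mouse background, and only EBM cells were digested, so region and digestion cannot be told apart. The sources used here do not say that libraries 1, 2 and 3 of a region came from separate mice, so p-values measure only the spread between these libraries.

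Histones package DNA into nucleosomes: H2A, H2B, H3 and H4 form the core, and H1 binds the linker DNA between cores. Most clustered histone genes are switched on in S phase, lack introns, and give messages that end in a short stem-loop instead of a poly(A) tail, with stem-loop binding protein (SLBP) guiding their processing, translation and decay. Some clustered genes, Hist1h1c, Hist1h2bc and Hist2h2be among them, are known also for polyadenylated transcripts that run past the stem-loop.

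The stem-loop that ends these messages is shown first, because it defines how these messages end and because several members are annotated beyond it. The histone stem-loop, 16 bases with purine and pyrimidine positions free to vary, was found in an annotated transcript of 46 of the 67 members. The form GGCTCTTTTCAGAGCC was the most frequent, in 26 members, followed by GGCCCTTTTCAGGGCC in 7 and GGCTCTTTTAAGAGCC in 6. In the lines that follow, the capitals mark the stem-loop, with 5 bases of transcript on either side, written as DNA in the direction of the message.
Hist1h1c: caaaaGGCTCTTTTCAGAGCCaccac
Hist3h2a: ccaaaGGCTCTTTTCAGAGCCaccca
Hist1h4i: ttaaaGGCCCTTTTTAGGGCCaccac
Hist1h2bj: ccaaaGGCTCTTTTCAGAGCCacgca
Hist1h3c: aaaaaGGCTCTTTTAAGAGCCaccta
Hist1h4n: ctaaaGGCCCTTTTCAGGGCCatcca

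In GRCm38 (mm10) the capitals lay at chr13:23739512-23739527 on the plus strand for Hist1h1c, chr11:58955172-58955187 on the plus strand for Hist3h2a and chr13:22040966-22040981 on the minus strand for Hist1h4i. These 3 genes are annotated well past that point. The single-exon transcript of Hist1h1c continued for 840 bases after the stem-loop, that of Hist3h2a for 1643 and that of Hist1h4i for 330, and each held AATAAA or ATTAAA, the poly(A) signal, in its last 50 bases. Such a signal was annotated for 17 of the 67 members, 14 of which also held a stem-loop. Hist1h2bc, annotated with 2 exons and 1156 bases, held neither, and Hist2h2be, annotated with 1 exon and 2620 bases, held a signal without a matching stem-loop. The count of matches depends on where each annotated transcript ends. Of 18 members whose annotated exons summed to under 450 bases, 4 had a match.

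Promoters were read from RefSeq (GRCm38.p6) for 61 of the 67 members, as 250 bases before and 50 after the annotated start. Those of Hist1h1c (chr13:23738557-23738856, plus strand), Hist3h2a (chr11:58954435-58954734, plus strand) and Hist1h4i (chr13:22041313-22041612, minus strand) are printed as examples of genes with EBM levels above all CBM levels. Of the other genes with such levels, Hist1h2bc and Hist2h2be had no promoter read, and that of Hist2h3c2 was read but is not printed. Capitals mark the letters CCAAT of the CCAAT box, TATAAA of the TATA box and ATTTGCAT of the octamer, on either strand, so that some appear as their reverse complements.
Hist1h1c: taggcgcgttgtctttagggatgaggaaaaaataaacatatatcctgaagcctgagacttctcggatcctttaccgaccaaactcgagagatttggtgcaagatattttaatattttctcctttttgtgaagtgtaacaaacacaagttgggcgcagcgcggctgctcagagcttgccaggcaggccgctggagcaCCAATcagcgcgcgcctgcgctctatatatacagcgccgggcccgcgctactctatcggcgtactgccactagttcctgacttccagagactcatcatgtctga
Hist3h2a: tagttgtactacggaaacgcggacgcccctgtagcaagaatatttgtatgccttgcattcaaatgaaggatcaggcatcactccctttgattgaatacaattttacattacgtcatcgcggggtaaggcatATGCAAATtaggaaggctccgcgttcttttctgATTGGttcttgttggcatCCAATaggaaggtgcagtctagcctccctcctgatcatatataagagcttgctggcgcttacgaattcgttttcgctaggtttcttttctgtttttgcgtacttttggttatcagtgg
Hist1h4i: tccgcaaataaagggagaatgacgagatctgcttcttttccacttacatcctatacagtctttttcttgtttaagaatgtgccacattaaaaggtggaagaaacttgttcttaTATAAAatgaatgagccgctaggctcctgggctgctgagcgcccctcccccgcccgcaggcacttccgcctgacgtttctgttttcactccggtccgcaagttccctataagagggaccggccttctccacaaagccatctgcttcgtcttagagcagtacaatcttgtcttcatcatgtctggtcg
CCAAT was present in 85.2% of the 61 member promoters, against 37.4% of all 32851 promoters of the same length. It was found in every H1, H2A, H2B and H3 promoter read, and in 3 of 12 H4 promoters, and the Hist1h4i promoter did not hold it. TATAAA was present in 57.4% of member promoters against 13.6% of all. ATTTGCAT, the letters of the octamer motif, was present in 7 of 17 H2A and 7 of 16 H2B promoters, in none of the H1, H3 or H4 promoters, and in 1.74% of all promoters. H2A and H2B genes that lie head to head share promoter bases, so the same match can count in both types, and the 61 promoters are not all separate DNA. These are matches of letters and were not tested as binding sites.

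The libraries held between 16436526 and 19462964 counts over all genes. TMM normalisation factors ranged from 0.948 to 1.04, and 3 counts, taken as the floor, corresponded to between 0.149 and 0.193 CPM, the unit used for counts after scaling to library size. Markers of the cells were read for the label. Kit (3046 to 4513 counts per library), Runx1, Myb and Spi1 were present in all libraries, whereas Ptprc, which encodes the pan-leukocyte antigen CD45, had 2 to 68 counts. Ptprc was lowest in CBM 1 and CBM 3, with 4 and 2 counts. Mpo, the myeloperoxidase gene, had 29 to 643 counts, and Cd34, a progenitor surface marker, had 19 to 297. All 8 erythroid markers had RPKM (CPM per kilobase of exon) over 1 on average, and summed to between 2263 and 5853 CPM in a library. Osteoblast, stromal and T cell markers summed to at most 1.28, 1.11 and 1.06 CPM in any library, and endothelial and B cell markers to at most 69.1 and 14.5 CPM. Mature neutrophil markers ranged from 3.37 to 227 CPM, highest in CBM 2 and EBM 2. The part of these cells in the histone values was not tested.

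The methods describe rRNA-depleted RNA, while the labels name the library type mRNA. RNAs known to lack a poly(A) tail had few counts: of 12 such genes, 6 had 0 counts in every library, among them Rmrp, Rpph1 and Rnu7, and Rn7sk had 25 to 100 counts. Of these 6, all but Rny3 shared between 49.0% and 100% of their exon bases with another gene, so that a 0 there cannot be read as absence. The 12 genes summed to between 2.88 and 7.46 CPM in a library, yet taken per length 5 of them had a mean RPKM over 1. Which selection was used was not tested, and all levels that follow are those of the RNA that these libraries captured.

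Taken per length, the median tested member lay a little under the median tested gene. Median RPKM was 5.47 over the 55 members that passed the filter on low counts, against 6.93 over all 13352 genes tested. Of all tested genes, 44.3% had a lower RPKM than this median member. Of the tested members, 51 of 55 had RPKM over 1, as did 42 of 42 genes on the list of S-phase and fork genes. The median RPKM of that list was 24.8, with Pcna, the sliding clamp of the replication fork, at 176. Replication-independent histones, whose messages are mostly polyadenylated, had a median of 61.4, with H3f3b at 764 and H2afz at 282.

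**Figure D1:**
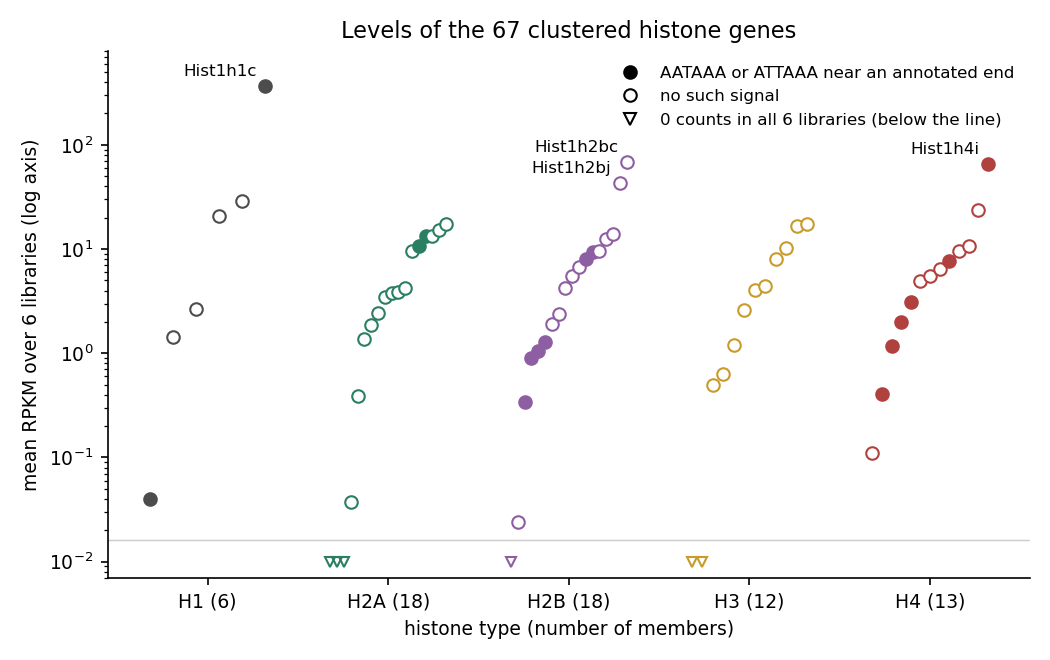
Mean RPKM over the 6 libraries (log axis) of the 67 members, grouped by histone type. Filled points have AATAAA or ATTAAA in the last 50 bases of an annotated transcript, and triangles under the line, drawn at an arbitrary height, mark the 6 members at 0 counts. Hist1h1c, at an RPKM of 365, sits above all other members.

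A single linker histone gene held most of the reads. Hist1h1c had 60356 counts over the 6 libraries, 57.1% of all counts assigned to members, and its RPKM of 365 ± 165 (SD, 6 libraries) ranked above that of 99.1% of tested genes. Together with Hist1h2bc, Hist1h4i, Hist3h2a and Hist1h1b it held 74.3% of member counts. Only 7 members exceeded an RPKM of 20, and 53 members had a total under 1000 counts.

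The other linker histones were far lower. Hist1h1b had an RPKM of 28.9 ± 2.76 and Hist1h1a one of 20.7 ± 3.31, both over 6 libraries. Hist1h1e and Hist1h1d had RPKM of 2.65 and 1.42, but their lengths of 1930 and 7425 bases are far longer than a histone message, and RPKM is lowered by annotated length that carries few reads. Hist1h1t, the H1 gene known for its expression in testis, had 4 counts, all in EBM 1.

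Core histone genes were spread over a wide range within each type. Among H2A genes the highest RPKM were 17.3 ± 2.01 for Hist1h2ak and 15.3 ± 4.73 for Hist1h2ao, which did not differ beyond their spread. The order depended on the region: in EBM Hist3h2a (16.1) stood above Hist1h2ak (15.7), and in CBM it was at 5.23. Among H2B genes Hist1h2bc (68.3 ± 40.3) and Hist1h2bj (43.0 ± 6.73) stood above the next, Hist1h2bg at 13.8, but in CBM alone Hist1h2bj (41.2) was above Hist1h2bc (35.7). Among H3 genes Hist1h3a (17.5 ± 3.29) and Hist1h3c (16.7 ± 1.96) were highest and lay within their spread of each other, with Hist1h3a first in CBM and Hist1h3c first in EBM. Among H4 genes Hist1h4i reached 65.1 ± 20.6, above Hist1h4n at 23.9 ± 3.09.

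Not all members could be measured. The filter left out 12 members, 6 of which had between 1 and 34 counts in total and 6 of which had 0 counts in all libraries. Of these zeros, 5 were Hist2 genes: Hist2h2aa1, Hist2h2aa2, Hist2h2bb, Hist2h3b and Hist2h3c1. Every exon base of these 5 was also an exon base of another annotated gene, and every 150-base window of their transcripts also occurred in another gene, so that their zeros cannot be read as absence. The antisense genes Gm20632 and Gm20633, which lie over Hist2h2aa2 and Hist2h2aa1, held 278 and 188 counts, and the sources used here do not say how reads shared by genes were assigned. The sixth zero, Hist1h2aa, a testis gene, had no shared window, and its partner in testis, Hist1h2ba, had 1 count.

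Sequence shared between copies limited other members too. In 24 of the 67 members at least 50% of the 150-base windows of the transcripts occurred in another gene, 13 members had no such window, and the median share was 24.5%. Hist1h1c, Hist1h1a, Hist1h1b, Hist2h2be and Hist1h2ak had none. Values of single members with much shared sequence, such as Hist1h2ao (91.5%), Hist1h3h (90.5%) and Hist1h4n (77.2%), are uncertain. Sums over members do not depend on how reads were split between copies that are members. Reads left out or assigned to other genes would be missing from the sums too, and their number is not known.

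The comparison of EBM with CBM asked whether histone messages differ between the regions. Summed over all 67 members, CPM was 894, 628 and 584 in CBM 1 to 3 and 1280, 1327 and 1235 in EBM 1 to 3. Every EBM library lay above every CBM library, and the mean was 702 ± 167 in CBM and 1280 ± 46.0 in EBM (SD, 3 libraries each), 1.82 times as much. Few genes held most of this difference. Without Hist1h1c, Hist1h2bc, Hist1h4i, Hist3h2a and Hist1h1b, the 5 members with the most counts, the remaining 62 members summed to 250 ± 47.3 CPM in CBM and 252 ± 31.4 in EBM. Those 62 had 300, 243 and 206 CPM in CBM 1 to 3 and 283, 252 and 221 in EBM 1 to 3, so that the regions overlapped. Counts of both regions chose these 5, so a member that was higher in EBM was more readily among them, and Hist1h1b itself hardly differed. With the 5 chosen by CBM counts alone, which put Hist1h2bj in place of Hist3h2a, the other 62 summed to 242 ± 48.8 CPM in CBM and 266 ± 28.5 in EBM, and again overlapped. In bulk libraries, fewer cells with a message and less of that message per cell cannot be told apart.

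**Figure D2:**
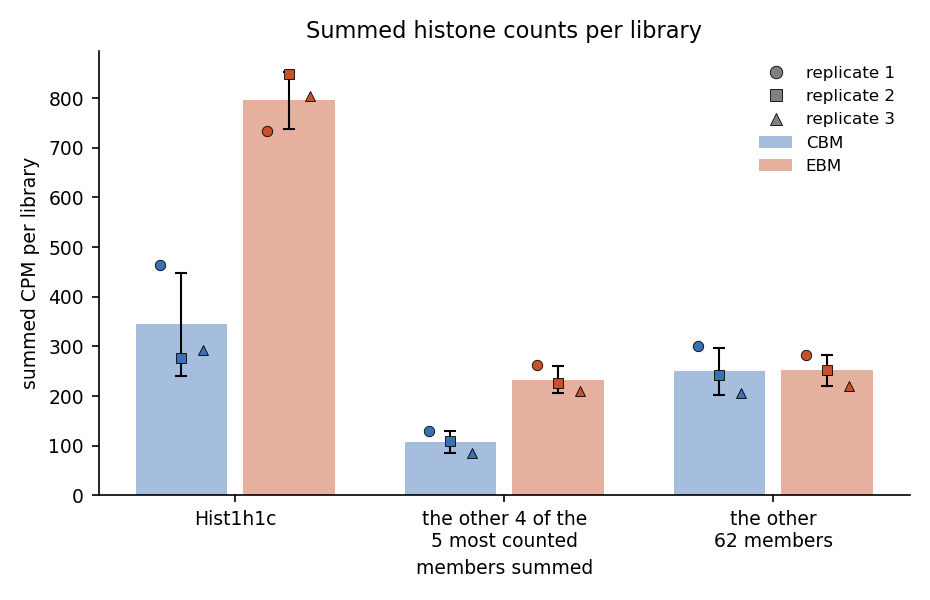
Summed TMM-normalised CPM per library for Hist1h1c, for the other 4 of the 5 members with the most counts over both regions, and for the other 62 members. Bars are means over 3 libraries, error bars are SD and points are libraries. CBM and EBM separate in the first 2 groups and overlap in the third, at 250 and 252 CPM.

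By type, the summed CPM of H1 genes was 397 ± 108 in CBM and 848 ± 54.8 in EBM, and that of H2B genes was 121 ± 29.4 and 209 ± 47.1. Both were higher in every EBM library than in any CBM library. Sums of H2A genes (65.3 ± 14.5 and 82.3 ± 5.23), H3 genes (40.2 ± 7.91 and 37.8 ± 3.91) and H4 genes (79.0 ± 14.4 and 103 ± 7.48) were closer. The H4 sums did not overlap between the regions, while those of H2A and H3 did. Single genes held much of these differences. Mean CPM in CBM and EBM was 41.3 and 117 for Hist1h2bc, 11.2 and 34.6 for Hist3h2a, and 35.1 and 59.5 for Hist1h4i. The median log2 difference, EBM minus CBM, of the tested genes was 0.14 for H2B, -0.17 for H2A and -0.05 for H4. The sums therefore do not show a rise across a type. Without Hist1h1c the H1 sum was 52.1 ± 6.68 in the flushed libraries against 53.0 ± 3.30 in the digested ones.

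Gene by gene, no member passed an adjusted p of 0.05 in the edgeR quasi-likelihood test with Benjamini-Hochberg adjustment over 13352 genes, and neither did any other gene (0.0% called), while 1056 genes, 7.91%, had an unadjusted p under 0.05. At an unadjusted p under 0.05, 5 members were higher in EBM, 9.09% of 55, and 2 were lower, 3.64% of 55. The share over all genes tested was 4.01% higher and 3.9% lower. The median log2 difference, EBM minus CBM, was 0.07 over the 55 members and 0.00 over all tested genes, and 37 of 55 members had a difference within 0.5 of 0. The share of all genes within 0.5 of 0 is not given, so this count cannot be read as particular to the members. The sign of the median over the members was not stable, with -0.11 without CBM 3 and -0.063 without EBM 1. DESeq2 called 4 of the 5 higher members at an adjusted p under 0.05, Hist1h1c, Hist1h2bc, Hist3h2a and Hist1h4i, where it called 1.32% of genes. edgeR without the filter on low counts called the first 3 of these, with 0.161% of genes called.

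Hist1h1c encodes H1.2, a linker histone that is also made outside S phase. Its CPM was 464, 276 and 293 in CBM 1 to 3 and 734, 848 and 803 in EBM 1 to 3. All EBM libraries lay above all CBM libraries, and CBM 1 was the highest of its region. The mean was 345 ± 104 in CBM and 795 ± 57.4 in EBM, a log2 difference of 1.21 (SE 0.210, edgeR adjusted p = 0.182; DESeq2 adjusted p = 3.5e-05). The other linker genes had smaller differences: that of Hist1h1b was 0.15 (SE 0.131), that of Hist1h1d 0.00 (SE 0.180) and that of Hist1h1e 0.64 (SE 0.370), with none at an unadjusted p under 0.05. Hist1h1a went the other way, with 19.1, 17.6 and 14.9 CPM in CBM and 14.0, 14.0 and 12.7 in EBM, and its log2 difference was -0.34 (SE 0.145, edgeR adjusted p = 0.632).

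Hist3h2a, an H2A gene outside the main cluster, had the largest difference of the 55 tested members. Its CPM was 16.3, 9.63 and 7.74 in CBM 1 to 3 and 34.7, 34.9 and 34.1 in EBM 1 to 3. The EBM libraries were nearly level with each other and all lay above the CBM ones, of which CBM 1 was the highest. The log2 difference was 1.62 (SE 0.271, edgeR adjusted p = 0.170; DESeq2 adjusted p = 3.3e-06). Of the exon bases of Hist3h2a, 33.0% were also annotated to Trim17 on the same strand, a gene with 72 counts over the 6 libraries against 2411 for Hist3h2a. Hist3h2ba, its H2B neighbour in the same locus, had a log2 difference of 0.53 with an SE of 0.505. The other H2A genes had differences between -0.76 and 0.67. Hist1h2an was the only other H2A gene at an unadjusted p under 0.05 (edgeR adjusted p = 0.566), at 1.71, 2.26 and 1.79 CPM in CBM and 1.21, 1.28 and 0.900 in EBM. The 2 H2A genes with the highest RPKM over both regions, Hist1h2ak and Hist1h2ao, had differences of -0.27 (SE 0.155) and -0.55 (SE 0.262).

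**Figure D3:**
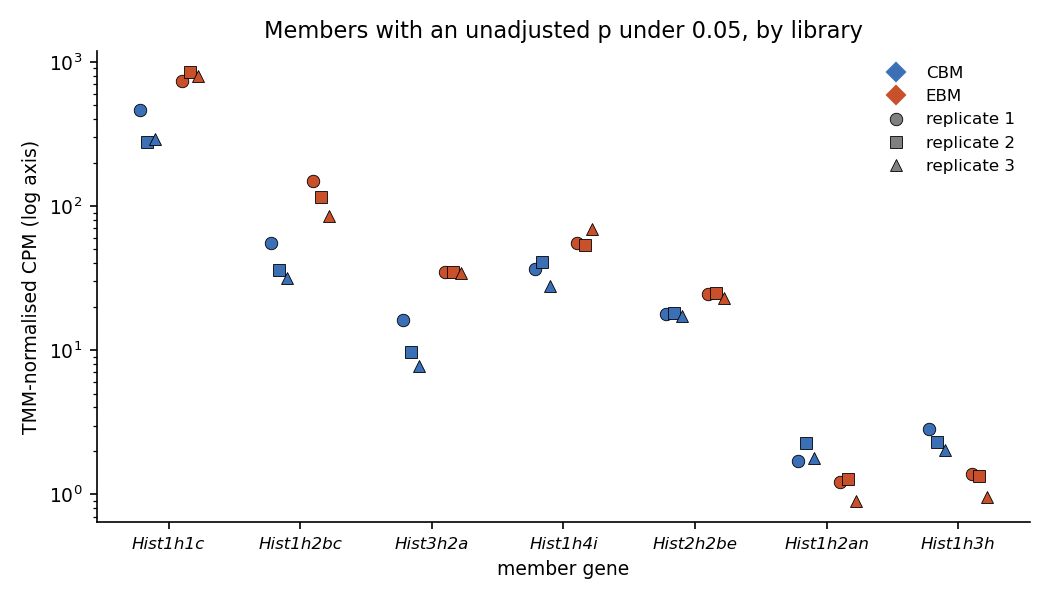
TMM-normalised CPM (log axis) in each library of the 7 members with an unadjusted p under 0.05. Symbols give the replicate and colours the region. The 3 EBM values lie above the 3 CBM values for the first 5 genes, from 734 to 848 CPM for Hist1h1c, and beneath them for Hist1h2an and Hist1h3h.

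Hist1h2bc was the H2B gene with the largest difference. Its CPM was 55.8, 36.2 and 31.9 in CBM 1 to 3 and 149, 116 and 84.9 in EBM 1 to 3. The regions did not overlap, and within each region replicate 1 was the highest. The log2 difference was 1.50 (SE 0.277, edgeR adjusted p = 0.189; DESeq2 adjusted p = 3.5e-05). Hist2h2be, which is also known for a polyadenylated form, had 17.9, 18.2 and 17.4 CPM in CBM and 24.6, 24.8 and 22.9 in EBM. Its libraries were closely grouped within each region, and the log2 difference of 0.44 was small with an SE of 0.108 (edgeR adjusted p = 0.343; DESeq2 adjusted p = 0.117). Hist1h2bj, the second of the H2B genes by RPKM over both regions and the first in CBM, had a difference of 0.13 (SE 0.180). Of the 16 tested H2B genes, 13 had an estimate above 0, where 50.4% of all tested genes did. Hist1h2bh had the smallest p among the 3 below 0, with a difference of -0.34 and an SE of 0.336.

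Among H4 genes, Hist1h4i had the largest difference, with 36.5, 41.0 and 27.8 CPM in CBM 1 to 3 and 55.4, 53.8 and 69.2 in EBM 1 to 3. The regions did not overlap, and the log2 difference was 0.76 (SE 0.176, edgeR adjusted p = 0.310; DESeq2 adjusted p = 0.022). Hist1h4n differed by 0.07 (SE 0.190). Hist4h4, which lies alone on chromosome 6, had 1.76, 1.63 and 0.843 CPM in CBM and 1.10, 0.779 and 0.835 in EBM, and these overlapped. The 12 tested H4 genes had 5 estimates above 0 and 7 under it.

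H3 genes had no member higher at an unadjusted p under 0.05. Hist1h3h had 2.85, 2.32 and 2.03 CPM in CBM 1 to 3 and 1.38, 1.34 and 0.964 in EBM 1 to 3, lower in every EBM library. Its log2 difference was -0.96 (SE 0.274, edgeR adjusted p = 0.425; DESeq2 adjusted p = 0.424). Hist1h3a and Hist1h3c, the H3 genes with the highest RPKM over both regions, differed by -0.28 (SE 0.204) and 0.05 (SE 0.176). Hist2h3c2 had 1.19, 1.05 and 0.843 CPM in CBM and 1.27, 1.50 and 1.41 in EBM, and although the regions did not overlap, its difference of 0.44 (SE 0.276) had an edgeR adjusted p of 0.769. Both members that were lower at an unadjusted p under 0.05, Hist1h2an and Hist1h3h, had totals of 168 and 199 counts and shared 72.5% and 90.5% of their windows with other genes.

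**Figure D4:**
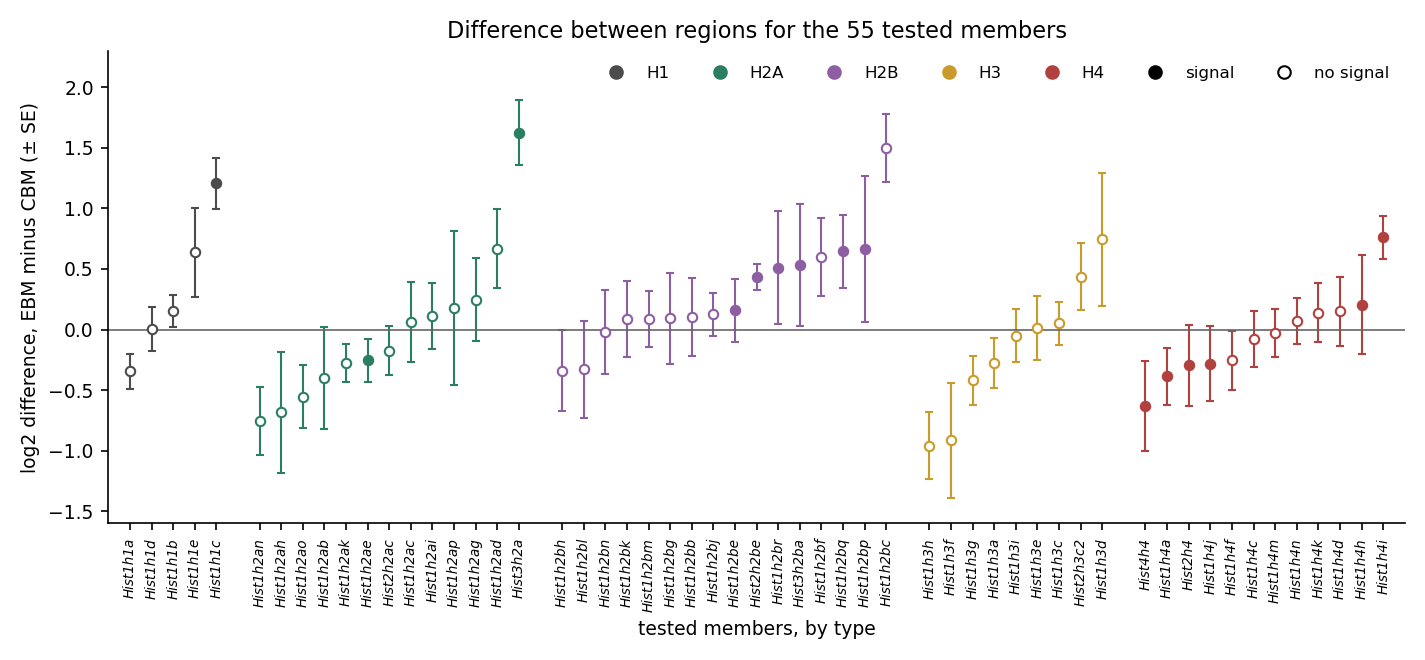
Log2 difference, EBM minus CBM, with its standard error for the 55 tested members, ordered within each histone type. Filled points have AATAAA or ATTAAA in the last 50 bases of an annotated transcript. Hist3h2a (1.62), Hist1h2bc (1.50) and Hist1h1c (1.21) are the only 3 members with a difference over 1 in size.

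The 3 CPM values of a region lay wholly above or wholly under those of the other for 12 of the 55 members, 21.8%, against 15.1% of all genes tested. The 12 were split evenly, with 6 higher in EBM (7.47% of all genes) and 6 lower (7.65% of all genes). The higher ones were Hist1h1c, Hist3h2a, Hist1h2bc, Hist2h2be, Hist1h4i and Hist2h3c2, and the lower ones Hist1h1a, Hist1h2ak, Hist1h2an, Hist1h3g, Hist1h3h and Hist1h4a. CBM 1 was the highest of the CBM libraries for 43 of the 55 members, and the share of all genes for this count is not given. Among all 6 libraries, CBM 1 was the highest for 25 of the 55 members and for 2492 of the 13352 genes tested. Leaving out any one library raised the count of members that did not overlap, to between 14 and 21, since 2 libraries overlap less easily with 3. It was 21 without CBM 1, where 24.3% of all genes did not overlap, 19 without EBM 1 (21.1% of all genes) and 19 without EBM 3 (26.8%).

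Members were also compared by the annotated poly(A) signal. The 15 tested members with a signal had a median log2 difference of 0.44, with 10 estimates above 0, and 4 of them were higher at an unadjusted p under 0.05. The 40 tested members without one had a median of 0.03, with 22 above 0, and Hist1h2bc was the single one higher at that threshold. Hist1h2bc is itself known for polyadenylated transcripts, and the signal depends on where each annotated transcript ends. Hist1h1d and Hist1h2ac, also without a signal, were annotated for 4884 and 2010 bases after the stem-loop. The 2 sets therefore do not separate polyadenylated from other messages. The shares higher at that threshold were 26.7% with a signal and 2.5% without, against 4.01% of all genes tested. Estimates above 0 were held by 50.4% of all genes tested. The 2 sets were not tested against each other. The 6 tested H2B genes with a signal all had estimates above 0, from 0.16 (SE 0.256) for Hist1h2be to 0.66 (SE 0.602) for Hist1h2bp. Of these 6, Hist1h2bq and Hist1h2br shared 92.4% and 84.2% of their windows with other genes. Hist1h2bp and Hist1h2br had 80 counts each. Of the 10 tested H2B genes without a signal, 7 also had estimates above 0. Among the 6 tested H4 genes with a signal only Hist1h4h and Hist1h4i did.

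H2A and H2B genes often lie head to head and share the stretch between their starts. With starts at most 500 bases apart, 12 such pairs were found, 176 to 306 bases apart, and 11 had both genes tested. The H2B estimate was above the H2A estimate in 8 of the 11. Hist1h2bc and Hist1h2ac, whose starts are 251 bases apart, had RPKM of 68.3 and 3.48 and log2 differences of 1.50 (SE 0.277) and 0.06 (SE 0.332). Hist2h2be and Hist2h2ac, 239 bases apart, had differences of 0.44 (SE 0.108) and -0.17 (SE 0.201). Hist1h2ad and Hist1h2bf, by contrast, had differences of 0.67 (SE 0.328) and 0.60 (SE 0.325), near to each other but on totals of 233 and 96 counts. Hist1h2ad shared 59.3% of its windows with other genes. Other pairs too held genes with much shared sequence, such as Hist1h2ao (91.5%) and Hist1h2bq (92.4%), whose single values are uncertain. Differences within pairs were not tested.

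**Figure D5:**
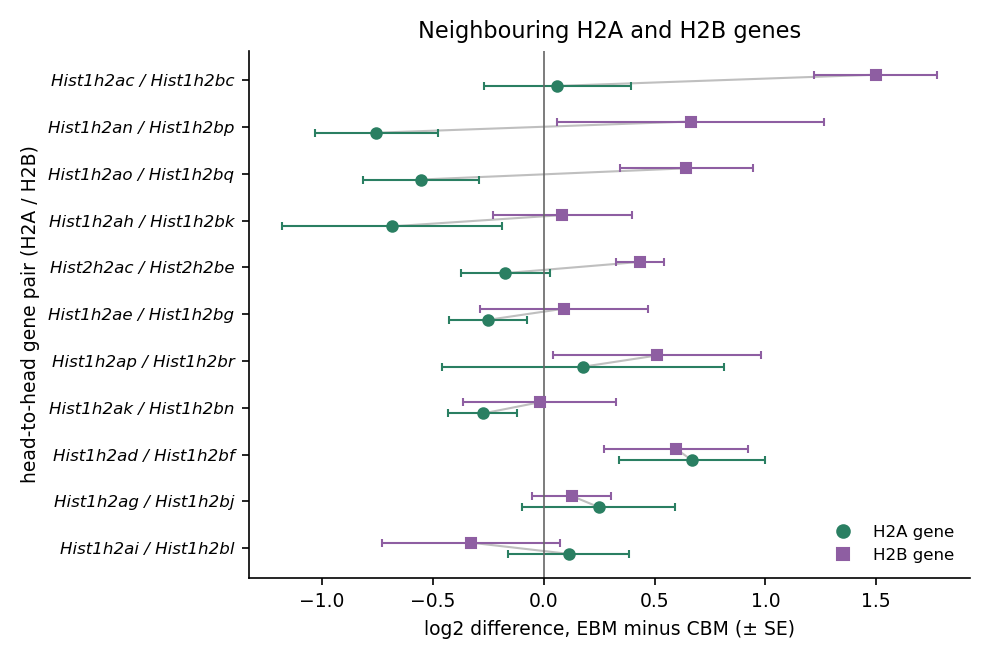
Log2 difference, EBM minus CBM, with its standard error for the H2A gene (circles) and the H2B gene (squares) of the 11 head-to-head pairs with both genes tested. The widest gap is that of Hist1h2ac (0.06) and Hist1h2bc (1.50).

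Genes that act on histone messages had a median estimate near that of all genes. Of 26 genes for histone 3′ end processing and histone gene transcription, 25 were tested, none passed the adjusted threshold, an unadjusted p under 0.05 was met by 1 higher and 1 lower gene, and the median log2 difference was 0.03. The shares over all genes tested at that unadjusted threshold were 4.01% higher and 3.9% lower. Slbp, which encodes the stem-loop binding protein, had 95.9, 124 and 116 CPM in CBM 1 to 3 and 87.3, 103 and 115 in EBM 1 to 3. These overlapped, with a log2 difference of -0.13 (SE 0.143). Npat, the coactivator of histone gene transcription, differed by -0.21 (SE 0.175). Casp8ap2 (FLASH), which joins the processing complex, differed by -0.39 (SE 0.160, edgeR adjusted p = 0.610). Lsm10 (-0.06, SE 0.160) and Lsm11 (0.11, SE 0.148), the U7 snRNP proteins, and Zfp473 (0.08, SE 0.286), which binds this particle, were close to 0. Mif4gd, which works with SLBP in translation, was the higher one, at 0.23 (SE 0.080, edgeR adjusted p = 0.546).

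On the S-phase and replication fork list, an unadjusted p under 0.05 was met by 0 of 42 genes in the higher and 3 in the lower direction, with a median of -0.07 and 31 estimates under 0. Over all genes tested, 4.01% were higher and 3.9% lower at that threshold, and 50.4% of estimates were above 0. Whether the list departs from these shares was not tested. Ccne1 (-0.75, SE 0.268, adjusted p = 0.552 by edgeR) and Ccne2 (-0.57, SE 0.193, adjusted p = 0.541), the cyclins of entry into S phase, had the smallest p, and Gins3 (-0.43, SE 0.172), a replication fork gene, was the third. The smallest p among estimates above 0 were those of Cdc45 (0.26, SE 0.142) and Mcm3 (0.09, SE 0.122), parts of the replicative helicase.

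Replication-independent histones, encoded outside the clusters, gave 2 of 9 tested genes higher and none lower at an unadjusted p under 0.05, against 4.01% higher and 3.9% lower over all genes tested. H3f3b, a gene for the variant H3.3, had between 27042 and 60090 counts, with every EBM library above every CBM library, and its log2 difference was 0.96 (SE 0.195, edgeR adjusted p = 0.233). H3f3a, the other H3.3 gene, differed by 0.07 (SE 0.144). H1f0, the linker histone H1.0 of cells that leave the cycle, differed by 0.85 (SE 0.280, edgeR adjusted p = 0.516), and its regions overlapped. H2afx (-0.12, SE 0.172) and H2afj (-0.02, SE 0.085) had the smallest p among estimates under 0.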

How the data were processed

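RNA was measured in 6 libraries, 3 CBM and 3 EBM, made with a directional kit and sequenced as 150-base paired reads. The authors deposited raw counts per gene. Their processing notes name HISAT2 2.0.5 and mm10, while the counting program, its strand setting and its treatment of reads that map to several genes are not given in the sources used here. Gene coordinates and lengths of all 67 members were the same as in GENCODE M21, from which transcripts were read.

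Counts were filtered with filterByExpr, leaving 13352 genes, scaled by TMM and tested with the quasi-likelihood F-test of edgeR 4.0.16 in R 4.3.3, without covariates, with Benjamini-Hochberg adjustment over all genes tested. The methods of the study name only an unpaired test. SE is the size of the log2 difference divided by the square root of F. RPKM is TMM-normalised CPM per kilobase of the deposited gene length. Alternatives were DESeq2 1.42.0, limma-voom 3.58.1, other scalings and filters, a replicate block and leaving out each library. Library depth was similar, and precision for members under 1000 counts is limited by counting and by the spread between libraries. Hist1h2bg, with 924 counts, had an SE of 0.378, and Hist1h2ak, with 739, one of 0.155. With 3 libraries against 3, an exact permutation test of one value cannot go under 0.1, so none was used.

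Named members were the 2 with the highest RPKM over both regions in each histone type, the one with the smallest p in each direction in each type, and genes known for polyadenylated or testis forms. Others are named where a count of them was given, after their values were seen. On the lists of other genes, the 2 with the smallest p in each direction were named, with the main processing factors. The members and lists were chosen with earlier results of these data known.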

Additional observations from a re-analysis of the deposited data

How the results depend on the processing

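The members called depended on the test. At an adjusted p under 0.05 the count was 0 of 55 with edgeR and 0 of 55 with limma-voom. It was 4 with DESeq2 and 3 with edgeR on every gene with at least 1 count, both of which gave estimates for 61 members. Over all genes the shares called were 0.0% with edgeR, 1.32% with DESeq2 and 0.161% with edgeR on every gene with at least 1 count. At an unadjusted p under 0.05 the members lower in EBM numbered 2, but 4 with library totals only, 1 with DESeq2 and 0 among members under 50% shared windows, a setting chosen after seeing the data. Leaving out 1 library gave 5 to 8 members higher, 8 of them without EBM 3, and 1 to 3 lower, with 1 without CBM 2 and 1 without EBM 3. The share of all genes at an unadjusted p under 0.05 is not given for these settings. These changes therefore cannot be read as particular to the members. The count of members that did not overlap, 12, became 14 to 21, with 21 without CBM 1, 19 without EBM 1 and 19 without EBM 3, by construction easier with fewer libraries. The log2 ratio of the summed CPM, 0.87, was 0.44 without Hist1h1c, 0.013 without the 5 members with the most counts and 0.14 without the 5 with the most CBM counts, all chosen after seeing the data, and 0.75 to 1.08 without 1 library. The small estimate of Hist1h2bj reversed without EBM 1 (range over the libraries left out -0.024 to 0.27), that of Hist1h3c without CBM 3 or EBM 1 (-0.059 to 0.16) and with library totals only (-0.016), and that of Hist1h4n without CBM 3 (-0.092 to 0.17) and with library totals only (-0.0023). The adjusted p of Hist1h1c ranged from 3.5e-05 to 0.809 over the alternatives, and its log2 difference from 1.07 to 1.48. The cause of these changes was not tested. Of 386 values recomputed, 359 kept their call, or stayed within 1.5 times the count or within the spread between libraries. Of these, 4 changed sign: the median log2 difference of the members, 0.068, was -0.11 without CBM 3, -0.063 without EBM 1 and -0.0023 with library totals only, and the log2 ratio of the H3 sums, -0.091, was 0.077 without CBM 1.

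Same-numbered libraries correlated at 0.676, -0.204 and 0.203 in their deviations from the region means, and CBM 2 correlated best with EBM 3 (0.510). With 3 libraries per region these deviations constrain each other, so the values cannot tell whether the numbers pair libraries. With the replicate block, an unadjusted p under 0.05 was met by 6 members above and 3 below 0, and the adjusted threshold by 0. The share of all genes is not given for this setting either. Depth and the spread between libraries both limit members under 1000 counts, and a total of 0 in genes that share all their exon bases with others sets no limit.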
